A study of Mus musculus with 4 samples.

Results

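The 10 genes described here are neutrophil granule genes, chosen by symbol and grouped by the stage of granulocyte maturation at which they are made. They are 4 primary granule genes (Mpo, Elane, Prtn3 and Ctsg), 4 secondary granule genes (Ltf, Ngp, Camp and Lcn2) and 2 late genes (S100a8 and S100a9). All 10 had a row among the 17230 rows of the count table, and all 10 were among the 14330 genes that passed the filter on low counts. The libraries came from CAR cells (reticular cells rich in CXCL12), a stromal cell of bone marrow that supports blood stem cells, sorted from mouse femurs at postnatal day 21. In the Hes1-derived group, with genotype Cxcl12(GFP/+); Hes1(CreER/+); R26R(tdTomato/+), 1 allele of Hes1 carries the CreER. In the Fgfr3-derived group, with genotype Cxcl12(GFP/+); Fgfr3-iCreER; R26R(tdTomato/+), the Cre is named for Fgfr3. Both groups had tamoxifen at embryonic day 12.5, which switches on tdTomato for good in cells that then express the Cre, and both carry GFP at 1 allele of Cxcl12. Each group had 2 libraries, replicates 1 and 3 of the Hes1-derived and replicates 2 and 3 of the Fgfr3-derived cells. The labels do not say whether a library is 1 animal or a pool, so p-values measure only the spread between these samples, which may be technical.

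Neutrophils build their granules in order as they mature in the marrow. Promyelocytes fill primary (azurophil) granules with myeloperoxidase and serine proteases, myelocytes and metamyelocytes fill secondary (specific) granules with iron-binding and cathelicidin-type antimicrobial proteins, and the S100A8 and S100A9 proteins then accumulate in the cytosol of maturing cells. Monocyte precursors also make several of the primary granule proteins, and monocytes make S100A8 and S100A9. The regulators PU.1 and the C/EBP family are known to drive these genes at successive stages. Stromal cells are not known as a source of primary granule proteases.

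The promoters of the primary granule genes shared a short sequence, which is why they are shown. The motif AGGAAGT, the core of a typical PU.1 site, was searched on both strands in the 250 bases upstream of each RefSeq gene start (GRCm38.p6). It lay upstream of all 4 primary genes, of none of the 4 secondary genes and of 1 of the 2 late genes, S100a8. Of 32851 windows of the same length, 7.69% held it. AGGAAGT was chosen after the promoters of these genes had been read, so its count among them is a description. Capitals mark AGGAAGT or its reverse complement, and bases that GENCODE M21 annotates as exons of the gene were left out of the printed runs but not of the search.
Mpo (chr11:87793534-87793580, forward strand): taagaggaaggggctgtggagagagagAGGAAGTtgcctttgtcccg
Elane (chr10:79886062-79886246, forward strand): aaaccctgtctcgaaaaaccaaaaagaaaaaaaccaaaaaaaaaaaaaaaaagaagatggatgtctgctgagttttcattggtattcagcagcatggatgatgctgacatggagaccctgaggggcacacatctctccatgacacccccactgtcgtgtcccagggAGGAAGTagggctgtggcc
Prtn3 (chr10:79879417-79879613, forward strand): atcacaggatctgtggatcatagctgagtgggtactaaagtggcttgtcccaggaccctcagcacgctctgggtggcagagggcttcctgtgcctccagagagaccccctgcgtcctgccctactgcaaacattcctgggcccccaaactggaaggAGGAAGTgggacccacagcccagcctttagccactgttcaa
Ctsg (chr14:56102575-56102824, reverse strand): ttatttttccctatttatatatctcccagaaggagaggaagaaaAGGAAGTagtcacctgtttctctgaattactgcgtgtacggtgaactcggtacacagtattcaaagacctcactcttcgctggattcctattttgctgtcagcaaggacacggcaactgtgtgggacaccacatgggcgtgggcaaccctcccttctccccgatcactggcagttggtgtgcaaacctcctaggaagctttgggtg
S100a8 (chr3:90668821-90668977, forward strand): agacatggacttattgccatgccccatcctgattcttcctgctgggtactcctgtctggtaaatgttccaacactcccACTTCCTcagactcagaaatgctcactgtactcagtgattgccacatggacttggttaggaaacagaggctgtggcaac
Ltf (chr9:111019042-111019270, forward strand): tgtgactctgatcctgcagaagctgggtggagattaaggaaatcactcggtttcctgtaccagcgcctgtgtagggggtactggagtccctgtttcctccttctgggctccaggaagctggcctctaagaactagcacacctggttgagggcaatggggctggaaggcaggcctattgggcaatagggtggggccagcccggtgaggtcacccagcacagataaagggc
Ltf stands for the secondary genes, with no capitals. Elane and Prtn3 are neighbouring genes on chromosome 10. The shorter motif AACGG, the core of a MYB site, followed AGGAAGT in both. It lay wholly (Elane) or partly (Prtn3) in bases not printed here. AACGG lay upstream of no other member, thus of 2 of 10 members, against 14.5% of all windows. This count is a description too. The C/EBP-type motif TTNNGNAA or TGNNGNAA lay upstream of 8 of the 10 members, Prtn3 and Ctsg being the exceptions, and of 60.9% of all windows.

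Granule transcripts made up 2.59% of all reads in Hes1-derived replicate 1 (95% Wilson interval 2.59% to 2.60%) and 3.198% in Hes1-derived replicate 3 (3.19% to 3.21%). They made up 0.837% in Fgfr3-derived replicate 2 (0.834% to 0.841%) and 2.07% in Fgfr3-derived replicate 3 (2.06% to 2.08%). Fgfr3-derived replicate 2 thus stood apart from the other 3 libraries. These intervals cover counting error only, since PCR copies of reads cannot be told from separate molecules here. The libraries held between 22745128 and 26804832 counted reads, and each member had at least 1105 reads in every library. In these bulk samples, fewer neutrophil-lineage cells and less granule RNA per cell cannot be told apart.

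Every member had a higher mean level in Hes1-derived than in Fgfr3-derived libraries, and no member passed the test. The median difference was 1.41-fold for primary, 2.09-fold for secondary and 2.32-fold for late genes (log2 fold changes 0.49, 1.06 and 1.22). The median log2 fold change of all 14330 tested genes was −0.025, and 48.5% of them were above 0. At an adjusted p of 0.05 (quasi-likelihood F test in edgeR, Benjamini-Hochberg over every tested gene), 0 of 10 members were called, where 5.24% of all genes were called higher and 6.56% lower. Unadjusted, Camp, Lcn2 and S100a9 had p under 0.05, as did 13.7% of all genes in the same direction. DESeq2 called 4 members higher (Camp, Lcn2, S100a8 and S100a9), beside 9.97% of all genes. S100a9 alone was called with limma-voom (beside 6.22% of all genes), limma-trend on the deposited values (5.83%), upper-quartile factors (5.62%), library totals (6.4%), no filter (4.72%), a minimum count of 50 (7.16%) or an adjusted p under 0.10 (9.85%). No member was called higher with RLE factors (5.48% of all genes), dispersions that are not robust (5.23%) or scaling to stroma genes (2.88%). The 2 Hes1-derived libraries lay above both Fgfr3-derived libraries for 7 of 10 members, namely Elane, all 4 secondary genes and both late genes, as they did for 29.8% of all tested genes.

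**Figure D1:**
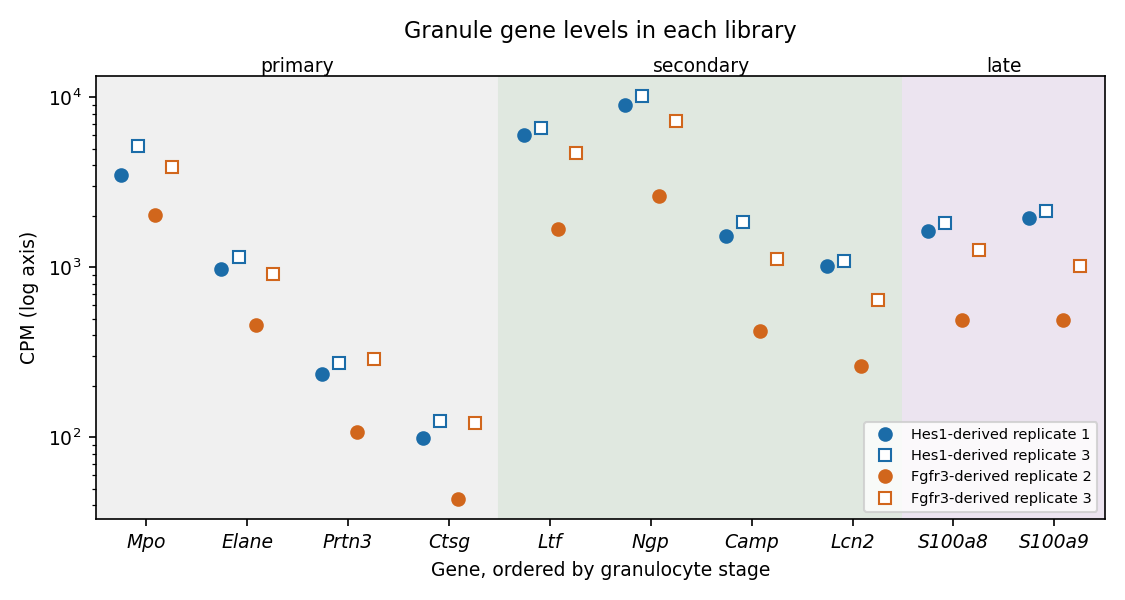
Level of each granule gene in CPM (counts per 1000000 reads, log axis) in each of the 4 libraries, 1 point per library, with genes ordered by stage. Fgfr3-derived replicate 2 is the lowest library for all 10 genes, and Fgfr3-derived replicate 3 reaches the Hes1-derived range for Mpo, Prtn3 and Ctsg.

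Among the primary granule genes, levels overlapped between the groups for all but Elane. Of all tested genes, 29.8% had both Hes1-derived libraries above both Fgfr3-derived libraries. Mpo encodes myeloperoxidase, which makes hypochlorous acid, and is annotated at chr11:87793581-87804413. Its level was 3506 CPM in Hes1-derived replicate 1 and 5169 CPM in replicate 3, against 2019 CPM in Fgfr3-derived replicate 2 and 3918 CPM in replicate 3, all scaled with TMM factors. Values below keep this order of libraries. Fgfr3-derived replicate 3 was above Hes1-derived replicate 1, so the groups overlapped, and the log2 fold change was 0.55 ± 0.42 (SE; adjusted p = 0.435). Elane, the gene of neutrophil elastase (chr10:79886247-79888215), stood at 976 and 1157 CPM against 459 and 917 CPM. Its lowest Hes1-derived library exceeded its highest Fgfr3-derived library by only 1.06-fold, and the log2 fold change was 0.63 ± 0.36 (adjusted p = 0.294). Prtn3, the gene of proteinase 3 (chr10:79874476-79883174), stood at 235 and 273 CPM against 108 and 289 CPM, so its highest library was Fgfr3-derived replicate 3. Ctsg, the gene of cathepsin G (chr14:56099881-56102574), was the least abundant member, at 98.6 and 125 CPM against 43.6 and 121 CPM. The log2 fold changes were 0.36 ± 0.42 for Prtn3 (adjusted p = 0.624) and 0.44 ± 0.43 for Ctsg (adjusted p = 0.545). The strand setting of the counting is not given in the sources used here. Exons of Mpo share 512 bases with the antisense gene Gm11505 and those of Prtn3 share 159 bases with Plppr3 on the opposite strand, so reads of these neighbours may be included.

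Among the secondary granule genes the groups did not overlap for any of the 4, and the log2 fold changes lay between 0.96 and 1.21. Both Hes1-derived libraries likewise lay above both Fgfr3-derived libraries for 29.8% of all tested genes. Ngp, neutrophilic granule protein of the cathelicidin-related family (chr9:110419747-110423012), was the most abundant member, with Hes1-derived levels of 8972 and 10199 CPM and Fgfr3-derived levels of 2618 and 7235 CPM. Ltf, the gene of the iron-binding protein lactoferrin (chr9:111019271-111042767), followed at 6027 and 6609 CPM against 1677 and 4696 CPM. Camp, the gene of the cathelicidin antimicrobial peptide (chr9:109847379-109849617), stood at 1525 and 1859 CPM against 424 and 1113 CPM. In each of these genes the gap within the Fgfr3-derived group was wider than the gap between the Hes1-derived libraries and Fgfr3-derived replicate 3. Lcn2 encodes lipocalin 2, which binds bacterial siderophores (chr2:32384633-32388252), and stood at 1021 and 1088 CPM against 263 and 646 CPM. The log2 fold changes were 0.96 ± 0.52 for Ngp (adjusted p = 0.264), 0.99 ± 0.50 for Ltf (adjusted p = 0.241), 1.14 ± 0.45 for Camp (adjusted p = 0.144) and 1.21 ± 0.42 for Lcn2 (adjusted p = 0.101).

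S100a8 and S100a9 encode the calcium-binding subunits of calprotectin and are neighbours on chromosome 3. S100a8 (chr3:90668978-90670035) had Hes1-derived levels of 1634 and 1835 CPM and Fgfr3-derived levels of 487 and 1266 CPM, with a log2 fold change of 0.98 ± 0.45 (adjusted p = 0.191). S100a9 (chr3:90692632-90695721) stood at 1963 and 2135 CPM against 489.7 and 1013 CPM, and had the widest gap of the 10 genes, its lowest Hes1-derived library being 1.94-fold above its highest Fgfr3-derived library. Its log2 fold change of 1.45 ± 0.39, a 2.73-fold difference, missed the threshold with an adjusted p of 0.0542. Over the 17 alternative settings the adjusted p of S100a9 ranged from 0.000277 to 0.897, and it passed in 9 of them.

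The spread within the Fgfr3-derived group was large for every member. Fgfr3-derived replicate 3 exceeded replicate 2 by 1.94-fold (Mpo) to 2.80-fold (Ltf), a step that 6.90% of all tested genes matched or exceeded, while the median gene differed by 0.998-fold. Between the Hes1-derived libraries the corresponding ratio of replicate 3 to replicate 1 was 1.07-fold (Lcn2) to 1.47-fold (Mpo). Without Fgfr3-derived replicate 3, 7 members passed (Prtn3, Ctsg, Ltf, Camp, Lcn2, S100a8 and S100a9), beside 8.05% of all genes called higher, and the stage medians were 1.28, 2.01 and 2.00. Without Fgfr3-derived replicate 2 none passed, beside 0.558% of all genes called higher and 1.1% lower, the stage medians were 0.0394, 0.54 and 0.76, and Prtn3 and Ctsg turned to −0.16 and −0.092. None passed without Hes1-derived replicate 1 (3.5% of all genes called higher) or without Hes1-derived replicate 3 (2.26%).

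The mix of stages within a library does not depend on how libraries are scaled to each other. Primary genes took 18.6% of granule reads in Hes1-derived replicate 1 (95% Wilson interval 18.5% to 18.7%) and 22.1% in replicate 3 (22.0% to 22.2%), against 30.6% in Fgfr3-derived replicate 2 (30.4% to 30.8%) and 24.7% in replicate 3 (24.6% to 24.8%). Secondary genes took 67.6% and 64.9% against 58.0% and 64.5%, and late genes 13.9% and 13.04% against 11.4% and 10.7%. Secondary reads per primary read were thus 3.64 and 2.94 in the Hes1-derived group and 1.89 and 2.61 in the Fgfr3-derived group. The log2 ratio was 1.71 ± 0.22 (SD, n = 2) against 1.15 ± 0.33, a difference of 0.56 or 1.47-fold. Late reads per primary read were 0.747 and 0.591 against 0.371 and 0.435, a log2 difference of 0.73 or 1.65-fold. Both ratios were higher in both Hes1-derived libraries, with gaps between the nearest libraries that were smaller than the gap within a group for the ratio of secondary to primary reads.

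Late reads per secondary read, by contrast, were 0.205 and 0.201 against 0.196 and 0.167, a log2 difference of 0.17. Taken as a mean of log2 CPM over the members, this ratio overlapped between the groups. It turned around when the most abundant member of each stage was left out (log2 difference −0.071), while the other 2 ratios kept their direction (late to primary 0.48). In that setting S100a8 alone stood for the late stage. The ratios are given as a description, without a test. The smallest two-sided p that an exact permutation test of 2 against 2 libraries allows is 0.333.

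**Figure D2:**
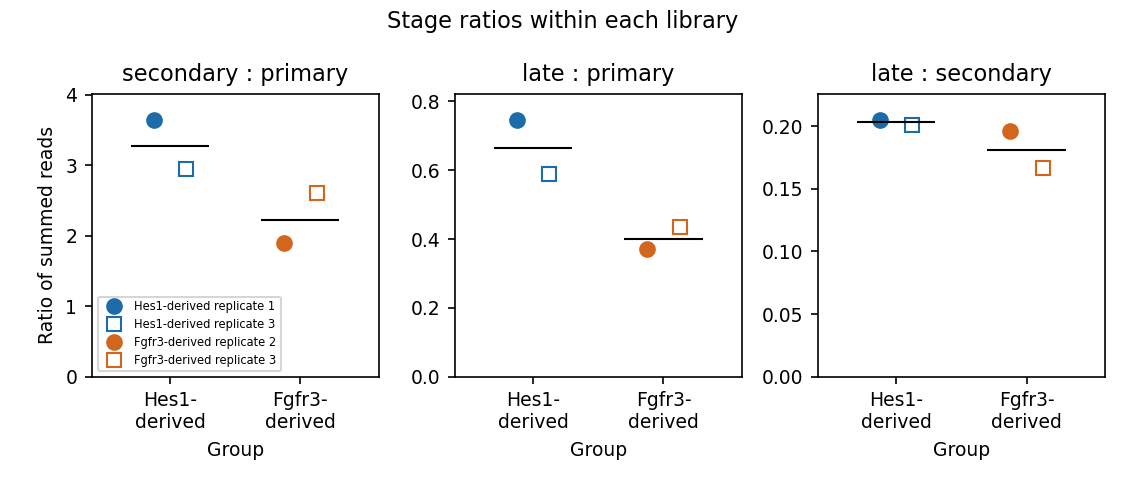
Reads of one stage divided by reads of another within each library, 1 point per library, with a bar at the geometric mean of each group and each axis starting at 0. Secondary to primary is 3.64 and 2.94 in the Hes1-derived and 1.89 and 2.61 in the Fgfr3-derived libraries, and late to secondary differs least between the groups.

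Pairs of members were compared within libraries in the same way, as the range over the 4 libraries of the log2 ratio of their reads. The 45 pairs share genes and libraries and are given as a description. The range had a median of 0.32 for the 13 pairs within a stage and 0.74 for the 32 pairs between stages. Secondary and late genes kept closer ratios (median range 0.31 over 8 pairs) than primary and secondary genes (0.81 over 16 pairs) or primary and late genes (0.93 over 8 pairs). The steadiest pair was Ltf and Ngp, with 1.49, 1.54, 1.56 and 1.54 Ngp reads per Ltf read in the 4 libraries in the order given above. In the same order, S100a8 had 0.182, 0.180, 0.186 and 0.175 reads per Ngp read, and Ctsg had 0.420, 0.457, 0.403 and 0.418 reads per Prtn3 read. The calprotectin subunits were the least steady pair within a stage, with 1.20, 1.16, 1.01 and 0.800 S100a9 reads per S100a8 read, highest in both Hes1-derived libraries. The least steady of all pairs was Prtn3 and S100a9, with 8.35, 7.82, 4.53 and 3.51 S100a9 reads per Prtn3 read.

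Levels were compared between genes per kilobase of merged GENCODE exons, a scale that understates genes with long minor transcripts. On this scale Ngp was highest in all 4 libraries, at Hes1-derived levels of 7342 and 8346 CPM per kilobase and Fgfr3-derived levels of 2143 and 5920.5. S100a9 and S100a8 came next in every library, and Elane, Lcn2, Prtn3 and Ctsg filled the last 4 places in that order in every library. Camp, Ltf and Mpo held the places between, with Mpo ahead of Camp and Ltf in Fgfr3-derived replicate 2 and behind them in the other 3 libraries. In the Hes1-derived group the ranges of S100a8 and Camp, and of Mpo and Elane, overlapped, although S100a8 was above Camp and Mpo above Elane within each of the 4 libraries. In the Fgfr3-derived group the ranges overlapped for all neighbours except Ngp and S100a9, and Elane and Lcn2.

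Other genes of the neutrophil lineage were listed by stage, with earlier results of these data known. Their median was also lowest for the primary stage, which is given as a description. None of 6 tested further genes of the primary stage passed (median log2 fold change 0.44), against 5.24% of all genes called higher. Ms4a3, a marker of granulocyte and monocyte precursors, showed 0.51 ± 0.32 (adjusted p = 0.345), and Ctsc, whose protease activates the granule serine proteases, showed −0.45 ± 0.26 (adjusted p = 0.304). Of 14 further secondary stage genes 2 rose and none fell (median 1.00). They were Olfm4 (olfactomedin 4, 1.95 ± 0.28, adjusted p = 0.0164) and Orm1 (an acute-phase carrier protein, 1.77 ± 0.43, adjusted p = 0.0425), both named after their values were seen. The more abundant Lyz2 (lysozyme) had Hes1-derived levels of 4546 and 6611 CPM and Fgfr3-derived levels of 1309 and 3049 CPM, with an adjusted p of 0.105. Chi3l3 (a chitinase-like protein) had 1829 and 2325 CPM against 689 and 1257 CPM, with an adjusted p of 0.0936. Hp, the gene of the haemoglobin-binding protein haptoglobin, had 1276 and 1169 CPM against 1119 and 1322 CPM. Cd177, a neutrophil surface protein, had 961 and 968 CPM against 151 and 936 CPM, so that Fgfr3-derived replicate 2 alone was low.

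Of 7 genes listed under gelatinase granules, which are filled after the secondary granules, 2 rose and 1 fell (median 1.35). Mmp8, neutrophil collagenase, is in this list although its protein is known from secondary granules. It rose by 1.67 ± 0.41 on the log2 scale (adjusted p = 0.0449). Its levels were 186 and 422 CPM in Fgfr3-derived and 805 and 1125 CPM in Hes1-derived libraries. Slc11a1, a metal transporter of phagocytes named after its values were seen, rose by 1.53 ± 0.31 (adjusted p = 0.0276). Mmp9, gelatinase B, which osteoclasts also make, fell by 1.36 ± 0.29, from 2997 and 2983 to 1069 and 1256 CPM (adjusted p = 0.0299). Of 17 mature neutrophil genes 4 rose and none fell (median 1.24). Among them were the cytokine gene Il1b (2.32 ± 0.29), Clec4d (2.14 ± 0.39) and Sepx1 (1.16 ± 0.30), picked once their values were known. Csf3r, the receptor of G-CSF, which drives neutrophil production, did not pass (1.25 ± 0.41, adjusted p = 0.0916), nor did Il1r2 or Trem1.

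These list counts changed with single libraries. With all libraries 2 secondary stage, 2 gelatinase granule and 4 mature neutrophil genes were called higher. Each count was lower without Fgfr3-derived replicate 2 or without Hes1-derived replicate 3, and higher without Fgfr3-derived replicate 3. The mature neutrophil count was also lower without Hes1-derived replicate 1. DESeq2 called 6, 5 and 11, beside 9.97% of all genes called higher. The log2 fold changes of the 7 named genes that had risen were 1.16 to 2.32 with all libraries. Without Fgfr3-derived replicate 2 they lay between 0.86 (Sepx1) and 2.11 (Il1b). Without Fgfr3-derived replicate 3 they lay between 1.64 (Sepx1) and 2.74 (Clec4d). Scaled to the pan-leukocyte list the counts were 0, 0 and 0, and scaled to eGFP reads 1, 1 and 2. The call of Mmp9 ended when any of the 4 libraries was left out (adjusted p between 0.0550 and 0.0959) at log2 fold changes of −1.48 to −1.25, and that of Il1b held in all 4 of these fits.

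**Figure D3:**
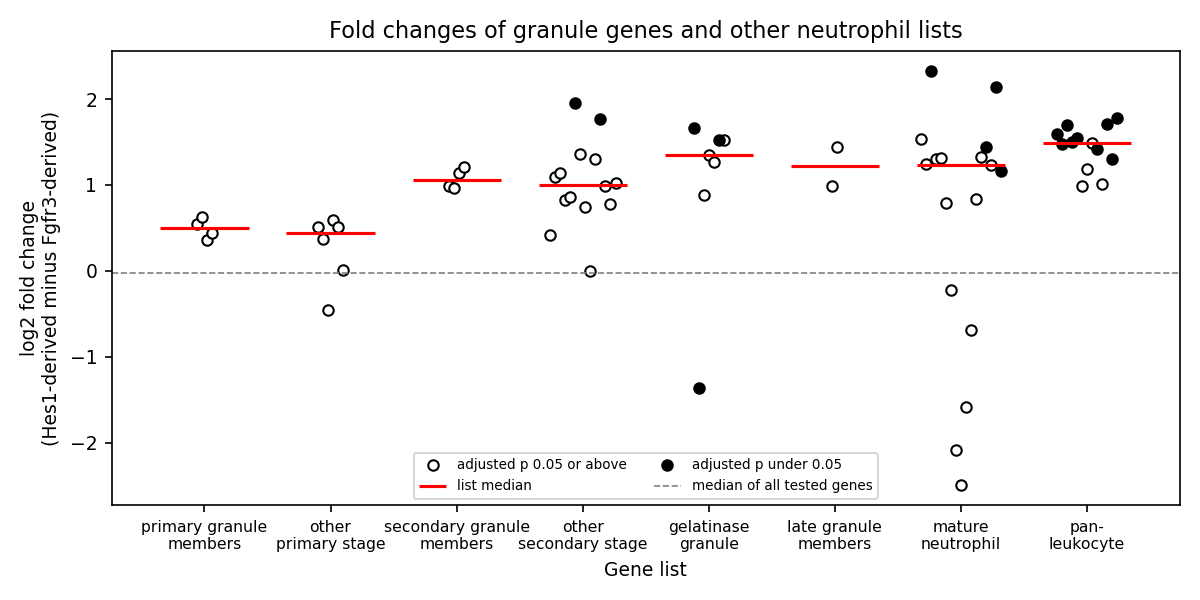
Log2 fold change (Hes1-derived minus Fgfr3-derived) of each tested gene, 1 point per gene, for the 3 granule gene stages, 4 further neutrophil lists and pan-leukocyte genes, with a bar at each list's median a dashed line at the median of all tested genes and filled points where the adjusted p is under 0.05. The medians are 0.49 and 0.44 for the primary stage lists, 1.06 and 1.00 for the secondary stage lists, and 1.22 to 1.48 for the lists of gelatinase granule, late, mature neutrophil and pan-leukocyte genes.

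Among 9 regulators of granulocyte development, Myb and Irf8 rose and none fell (median 0.75). Myb, a regulator of early blood precursors, showed 1.63 ± 0.31 (adjusted p = 0.0246), and Irf8, which favours monocytes and B cells over granulocytes, showed 1.502 ± 0.23 (adjusted p = 0.0184). Both were named after their values were seen, and both calls ended without Fgfr3-derived replicate 2, at 1.39 for Myb (adjusted p = 0.0962) and 1.31 for Irf8 (adjusted p = 0.0573). That of Myb also ended without Hes1-derived replicate 3, at 1.25 (adjusted p = 0.0628). Sfpi1, the gene of PU.1, had 243 and 250.2 CPM against 58.7 and 212 CPM, a log2 fold change of 0.86 ± 0.51 (adjusted p = 0.310), and was thus again lowest in Fgfr3-derived replicate 2. Cebpb and Cebpd, C/EBP factors with many sites of expression, stood close together in all libraries, with log2 fold changes of −0.29 and −0.15. The other C/EBP genes of this list, named after their values were seen, went in opposite directions, and neither passed in edgeR. Cebpa showed −0.73 ± 0.23 (adjusted p = 0.0838) and Cebpe 0.75 ± 0.42 (adjusted p = 0.280). Of 10 tested ligands and receptors of granulopoiesis, Cxcr4, the CXCL12 receptor that retains neutrophils in the marrow, rose by 1.94 ± 0.29 (adjusted p = 0.0168), named after its values were seen, and lost its call without Fgfr3-derived replicate 2, at 1.71 (adjusted p = 0.0549). Its ligand Cxcl12 had 7057 and 4179.8 CPM against 9764 and 7028 CPM, a log2 fold change of −0.58 ± 0.41 (adjusted p = 0.396), and Csf3, the G-CSF gene, did not pass the filter on low counts.

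Markers of several other blood cells were also higher in Hes1-derived libraries. All 13 pan-leukocyte genes had a positive log2 fold change and 9 rose (median 1.48), with summed Hes1-derived levels of 5907 and 6825 CPM and Fgfr3-derived levels of 1649 and 3406 CPM. The count of 9 became 0 without Fgfr3-derived replicate 2 and 13 without replicate 3 of that group. Leaving out the Hes1-derived replicate 3 gave 2, and leaving out replicate 1 of that group gave 6. All 9 B lymphocyte genes rose (median 2.30, summed level 2249 and 2069 against 308 and 548 CPM), as did 6 of 7 erythroid genes (median 1.87). Of 11 monocyte and macrophage genes 2 rose (median 1.02, summed level 729.9 and 1215 against 378 and 549 CPM). No gene of these 4 lists was at 0 in any library. None of 8 eosinophil, basophil and mast cell genes, 6 T and NK cell genes, 5 megakaryocyte genes or 6 blood progenitor genes passed, and 5 of 10 proliferation genes rose (median 0.91). Of 15 stroma genes, the sorted population by its label, none rose and 2 fell (median −0.58), with summed levels of 15455 and 10239 against 23725 and 14252 CPM, and none was at 0. The part of these other cells in the granule gene differences was not tested.

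Levels were also taken relative to the summed reads of the pan-leukocyte list. On this scale S100a9 had 332 and 313 reads per 1000 pan-leukocyte reads in the Hes1-derived group and 297 and 298 in the Fgfr3-derived group. Primary granule reads per 1000 pan-leukocyte reads numbered 815 and 985 in the Hes1-derived group and 1595 and 1539.8 in the Fgfr3-derived group. Secondary reads numbered 2969.9 and 2894 against 3021 and 4019, and late reads 609 and 582 against 592 and 669. Primary and secondary reads were thus more numerous in both Fgfr3-derived libraries on this scale, and late reads overlapped. For secondary reads, Fgfr3-derived replicate 2 was only slightly above the Hes1-derived libraries. Scaling the test to this list gave medians of −0.82, −0.20 and −0.0861 for the 3 stages. It turned 9 of the 10 members negative, S100a9 staying at 0.12. It shifted the median of all genes to −1.54, with 35.9% of all genes called lower and 0.0837% higher. No member was called, with an adjusted p between 0.239 and 0.933. Scaling instead to eGFP reads, which follow the Cxcl12 locus, shifted the median of all genes to 0.83 and gave stage medians of 1.34, 1.85 and 2.01, again with no member called, beside 2.26% of all genes called higher. The eGFP level was 6669 and 3204 CPM in Hes1-derived and 9264 and 6754 CPM in Fgfr3-derived libraries. Primary reads per 1000 eGFP reads, 722 and 2098 against 284 and 777, overlapped between the groups. Secondary reads (2631 and 6165 against 538 and 2027) and late reads (539 and 1239 against 105 and 337) did not.

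**Figure D4:**
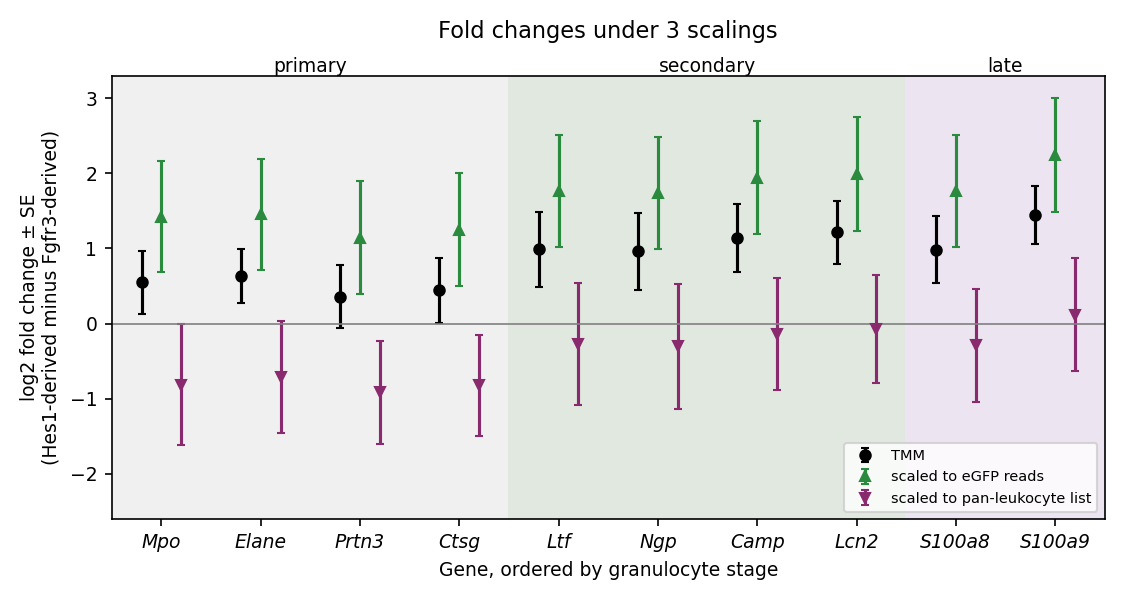
Log2 fold change of each granule gene (Hes1-derived minus Fgfr3-derived) with its SE under 3 scalings, namely TMM factors, eGFP reads and the summed reads of the pan-leukocyte list. Values are above 0 for all 10 genes with TMM and eGFP scaling and below 0 for all but S100a9 with pan-leukocyte scaling.

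The genes whose profile over the 4 libraries was most like each stage were found by the Euclidean distance between centred log2 CPM values, among 12812 tested genes with a proper name. For the primary stage they were Dok2 (distance 0.11), Kcna2 and Klc3. Plcb2 (0.0787), Parvg and Nfam1 were nearest to the secondary stage. Rac2 (0.0709), the haematopoietic Rac GTPase, Ccnb1ip1 and Gimap9 were nearest to the late stage. Kcna2 and Ccnb1ip1 were below 1 CPM in every library. Rac2, which is also in the pan-leukocyte list, had 989 and 1048 CPM against 260.0 and 636 CPM. With 4 libraries this likeness is a description only.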

How the data were processed

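Bulk RNA sequencing was deposited for 4 libraries. The raw counts are whole reads per gene symbol made by the authors. The deposited depth-normalized signal is the count divided by 1 constant per library, and the deposited log2 values, a regularized log2 per the file name, gave no result here. Per the submitters' processing notes, the tools were HTSeq, DESeq2, Cufflinks, Cuffdiff, Bowtie2 2.2.1, TopHat2 2.0.13 and FastQC, with mm10, no role being given. Annotation and strand setting are not given in the sources used here. The labels' protocols name a sort for tdTomato alone and a 10X Genomic Chromium loading beside Nextera XT libraries, while the cell type label gives GFP and tdTomato. Single columns of counts were treated as bulk.

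Counts of Hes1-derived and Fgfr3-derived libraries were compared in edgeR 4.0.16 (R 4.3.3) with TMM factors, filterByExpr (minimum count 10) and robust quasi-likelihood tests, adjusted by Benjamini-Hochberg over 14330 genes. An SE is the size of the log2 fold change over the root of its F statistic. The fit was tested on simulated data. Alternatives used RLE, upper-quartile, library-total, eGFP, stroma-list and pan-leukocyte scaling, DESeq2 1.42.0, limma 3.58.1 (voom, and trend on log2 of the signal plus 1), other filters, dispersions and thresholds, and each library left out. Members and lists were chosen with earlier results of these data known. Beyond the 10 members, 155 of 158 list entries in 16 lists had a row, 7 of them by an older symbol. Named are the 10 members, up to 4 of the most abundant genes of each neutrophil list, the 2 most abundant of other lists where a result turns on them, the 3 genes most like each stage, and genes said to be chosen after their values were seen. A gene that this rule would name is not reported here. Promoter sequences are from RefSeq (GRCm38.p6, the same build as mm10), with all 10 members matched, and gene positions from GENCODE M21.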

Additional observations from a re-analysis of the deposited data

How the results depend on the processing

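No paired analysis was possible because the groups share only 1 replicate number. The count of 0 members higher, beside 5.24% of all genes, became 4 with DESeq2, beside 9.97% of all genes. It became 1 (S100a9) with upper-quartile factors (5.62% of all genes), library totals (6.4%), limma-voom (6.22%) or limma-trend on the deposited values (5.83%). It was also 1 (S100a9) with no filter (4.72%), a minimum count of 50 (7.16%) or an adjusted p under 0.10 (9.85%). Leaving out each library gave 0 to 7 members higher, primary, secondary and late medians of 0.0394 to 1.28, 0.54 to 2.01 and 0.76 to 2.00, and log2 differences of the stage ratios of 0.33 to 0.79 (secondary to primary), 0.56 to 0.89 (late to primary) and 0.0504 to 0.29 (late to secondary). The fits that leave out a library assume that the lone library varies like the other group. Scaling to eGFP reads gave stage medians of 1.34, 1.85 and 2.01, and to the pan-leukocyte list −0.82, −0.20 and −0.0861. Under the latter the log2 fold changes turned to −0.81 (Mpo), −0.71 (Elane), −0.92 (Prtn3), −0.82 (Ctsg), −0.27 (Ltf), −0.30 (Ngp), −0.14 (Camp), −0.0724 (Lcn2), −0.29 (S100a8) and −0.22 (Sepx1). Without Fgfr3-derived replicate 2 those of Prtn3 and Ctsg turned to −0.16 and −0.0918, the lowest of their ranges over the 4 left-out libraries, which reached 1.28 and 1.41. Leaving out the most abundant member of each stage left S100a8 alone for the late stage. The log2 difference of late to primary reads was then 0.48 and that of late to secondary reads −0.0710. Of 170 values for the 10 members under these alternatives, 159 kept their sign. The causes were not tested.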

Other observations

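The genes in this paragraph were chosen after their values were seen. The eosinophil granule genes Prg2 and Epx followed the neutrophil granule genes in being low in Fgfr3-derived replicate 2, by a wider margin. Prg2, the gene of eosinophil major basic protein, had 1071 CPM in Hes1-derived replicate 1 and 1276 CPM in replicate 3, against 86.1 CPM in Fgfr3-derived replicate 2 and 1057 CPM in replicate 3. Epx, eosinophil peroxidase, a relative of Mpo, stood at 365 and 396 CPM against 21.4 and 446 CPM. Neither passed the test (adjusted p = 0.539 and 0.764 in edgeR). In both genes 3 libraries lay close together and Fgfr3-derived replicate 2 alone was low. Ear1 and Ear2, from the same list of eosinophil, basophil and mast cell genes, differed from this. Ear1 had 48.4 and 57.9 CPM against 8.48 and 28.7 CPM, and Ear2 had 1.67 and 1.65 CPM against 0.315 and 0.650 CPM. Both Fgfr3-derived libraries were thus below both Hes1-derived libraries for Ear1 and Ear2.

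A few mature neutrophil genes had their highest level in Fgfr3-derived replicate 3. Stfa3, a stefin-type protease inhibitor, had 0.792 and 1.21 CPM against 1.38 and 9.90 CPM. Stfa2 stood at 1.01 and 1.45 against 1.58 and 8.87 CPM, and BC100530 at 6.11 and 6.17 against 4.02 and 32.8 CPM. These genes have near-identical copies, so that their separate counts are uncertain. In the fit with all libraries none passed (adjusted p = 0.115, 0.138 and 0.243 in edgeR), and 2 of the 17 mature neutrophil genes were lower without Fgfr3-derived replicate 2.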
